A study of Mus musculus with 12 samples.

Results

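The 10 genes described here are activity-regulated immediate early genes: Fos, Fosb, Fosl2, Junb, Egr1, Egr2, Egr4, Arc, Nr4a1 and Npas4. They were taken as a named list and matched by Ensembl gene identifier, and all 10 were found among the 24590 genes listed in any mouse. Each was listed in all 12 mice. RNA had been sequenced from hippocampi of 12 male mice of mixed strain (C57BL/6J and C57BL/6N), in 4 groups of 3. One line carries a deletion of exons 6 and 7 of Shank2, which encodes a scaffold protein in the postsynaptic density, and the other a deletion of exon 7. Each line gave 3 Shank2 knockout mice and 3 wild-type mice of the same line, and no other allele or agent is named in the labels. The labels describe behavioural experiments on littermates aged 8 to 15 weeks in the light phase. Whether these mice had been tested, and how long before the tissue was taken, is not stated in the labels. Every mouse has a number of its own, so replicates are separate animals.

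Immediate early genes are transcribed within minutes of a stimulus and need no new protein for it. In neurons, calcium entry and kinase signalling act on factors such as CREB and SRF that already sit at their promoters, and the transcripts are short-lived, so a level in tissue reflects the recent past. In the hippocampus they are widely used as markers of recently active neurons, above all in the dentate gyrus and CA1. Fos, Fosb, Fosl2 and Junb are subunits of the AP-1 transcription factor, and Egr1, Egr2 and Egr4 are zinc finger transcription factors. Nr4a1 is an orphan nuclear receptor, Npas4 is a neuron-specific factor induced by calcium, and Arc is not a transcription factor but a protein that removes AMPA receptors from synapses.

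The promoters of 4 of the genes are shown because Fos, Nr4a1 and Junb had high correlations with each other over the 12 mice, as described below, while the correlation of Fosb with Fos was low in the exon 7 line and high in the exon 6-7 line. The sequences are the 250 bases before the RefSeq transcription start (GRCm38.p6), written 5′ to 3′ on the strand of the gene. Capitals mark TGACG, the core of the cAMP response element that CREB binds, or its reverse complement CGTCA. The windows are chr12:85473640-85473889 on the plus strand for Fos, chr15:101266596-101266845 on the plus strand for Nr4a1, chr8:84978749-84978998 on the minus strand for Junb and chr7:19310046-19310295 on the minus strand for Fosb.
Fos: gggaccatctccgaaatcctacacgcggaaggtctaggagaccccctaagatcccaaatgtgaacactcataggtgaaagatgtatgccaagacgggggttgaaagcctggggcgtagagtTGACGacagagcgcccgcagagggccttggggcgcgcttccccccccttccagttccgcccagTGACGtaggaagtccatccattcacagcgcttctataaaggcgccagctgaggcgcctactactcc
Nr4a1: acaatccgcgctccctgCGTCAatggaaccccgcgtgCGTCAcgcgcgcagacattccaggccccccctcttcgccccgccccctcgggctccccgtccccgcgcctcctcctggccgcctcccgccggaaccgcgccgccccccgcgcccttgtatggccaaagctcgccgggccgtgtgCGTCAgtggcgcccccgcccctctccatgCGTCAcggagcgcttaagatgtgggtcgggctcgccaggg
Junb: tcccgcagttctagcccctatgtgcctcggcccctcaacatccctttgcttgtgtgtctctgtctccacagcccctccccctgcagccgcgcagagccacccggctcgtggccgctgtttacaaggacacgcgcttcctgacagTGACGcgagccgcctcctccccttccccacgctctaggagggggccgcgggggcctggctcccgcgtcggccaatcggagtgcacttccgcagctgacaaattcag
Fosb: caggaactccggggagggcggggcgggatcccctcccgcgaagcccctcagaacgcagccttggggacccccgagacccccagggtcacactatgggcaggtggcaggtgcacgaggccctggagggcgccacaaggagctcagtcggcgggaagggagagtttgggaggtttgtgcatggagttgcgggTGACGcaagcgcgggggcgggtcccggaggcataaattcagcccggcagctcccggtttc

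The core TGACG lay on either strand in the windows of 7 of the 8 genes searched, which were all but Arc and Egr1, and it was not found in that of Fosl2. Of 32851 single promoter windows of this length, 17.8% held it. A gene was counted if any of its windows held the core, and Egr2 had several windows, not all with it. The count of genes and the share of windows are therefore not like for like. Nr4a1 had 4 matches, at −233, −213, −69 and −40 bases from the start, and Fos had 2, at −129 and −66. Junb had 1, at −106, and Fosb 1, at −60. The full palindrome TGACGTCA, which contains the core, was in 0 of the 8 (1.55% of all windows), as were the AP-1 site TGANTCA (6.75%) and the EGR site GCGTGGGCG (0.536%). The CArG box, the site of SRF, was in the Egr2 windows only (1.47% of all). These matches describe letters in a window and are not evidence of binding.

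The values are FPKM (fragments counted per length of transcript and per library size), scaled between libraries. They hold no read counts, so depth is unknown and no counting error can be given. Differences were taken between values of log2(scaled FPKM + 1), a scale on which the change of low genes is understated, and adjusted p-values are from limma with Benjamini-Hochberg adjustment over 14212 genes, those whose mean reached 1 FPKM. Of the 10 genes 9 passed that filter. Egr2, with a mean of 0.878, did not, and its values below come from a fit with no filter. Shank2 itself stood at 13.8 to 14.9 in wild-type and 6.15 to 7.02 in knockout mice without exons 6 and 7, and at 36.0 to 44.1 and 33.2 to 44.6 in the other line. There the wild-type and knockout values overlapped, so this value does not check the labels of that line. The cause was not tested. Libraries WT778, KO776, WT628 and KO969, set A below, differed from the other 8, set B, and were marked by a gene that was at 0 in the 4 and at 218 to 435 FPKM in the 8. Of all genes, 6.82% passed for the set term of the exon 6-7 line and 31.5% for that of the exon 7 line. Each group has 1 mouse in set A, and the difference within each set is given beside the pooled one for each gene. Defining markers of hippocampal excitatory neurons (10 genes) summed to 704 to 867 scaled FPKM over the 12 mice, with no gene at 0. In bulk tissue, fewer cells of a type and less RNA per cell cannot be told apart.

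By level per length of transcript, Egr1 was first and Arc second in both lines, with medians of 45.6 and 36.2 scaled FPKM in the exon 6-7 line and 58.6 and 32.6 in the exon 7 line. Egr1 was above Arc in 6 of 6 mice of each line, although their ranges overlapped between mice. Junb and Nr4a1 came next, with medians of 31.1 and 26.8 in the exon 6-7 line and 18.5 and 22.5 in the exon 7 line, where their order was the other way round. Egr4, Fosl2, Fos and Npas4 followed at medians of 3.28 to 11.3 and 4.17 to 10.5, and the ranges of most neighbours in this order overlapped. Fosb and Egr2 were the lowest in both lines, with medians of 0.855 and 0.583 in the exon 6-7 line and 2.11 and 1.02 in the exon 7 line.

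**Figure D1:**
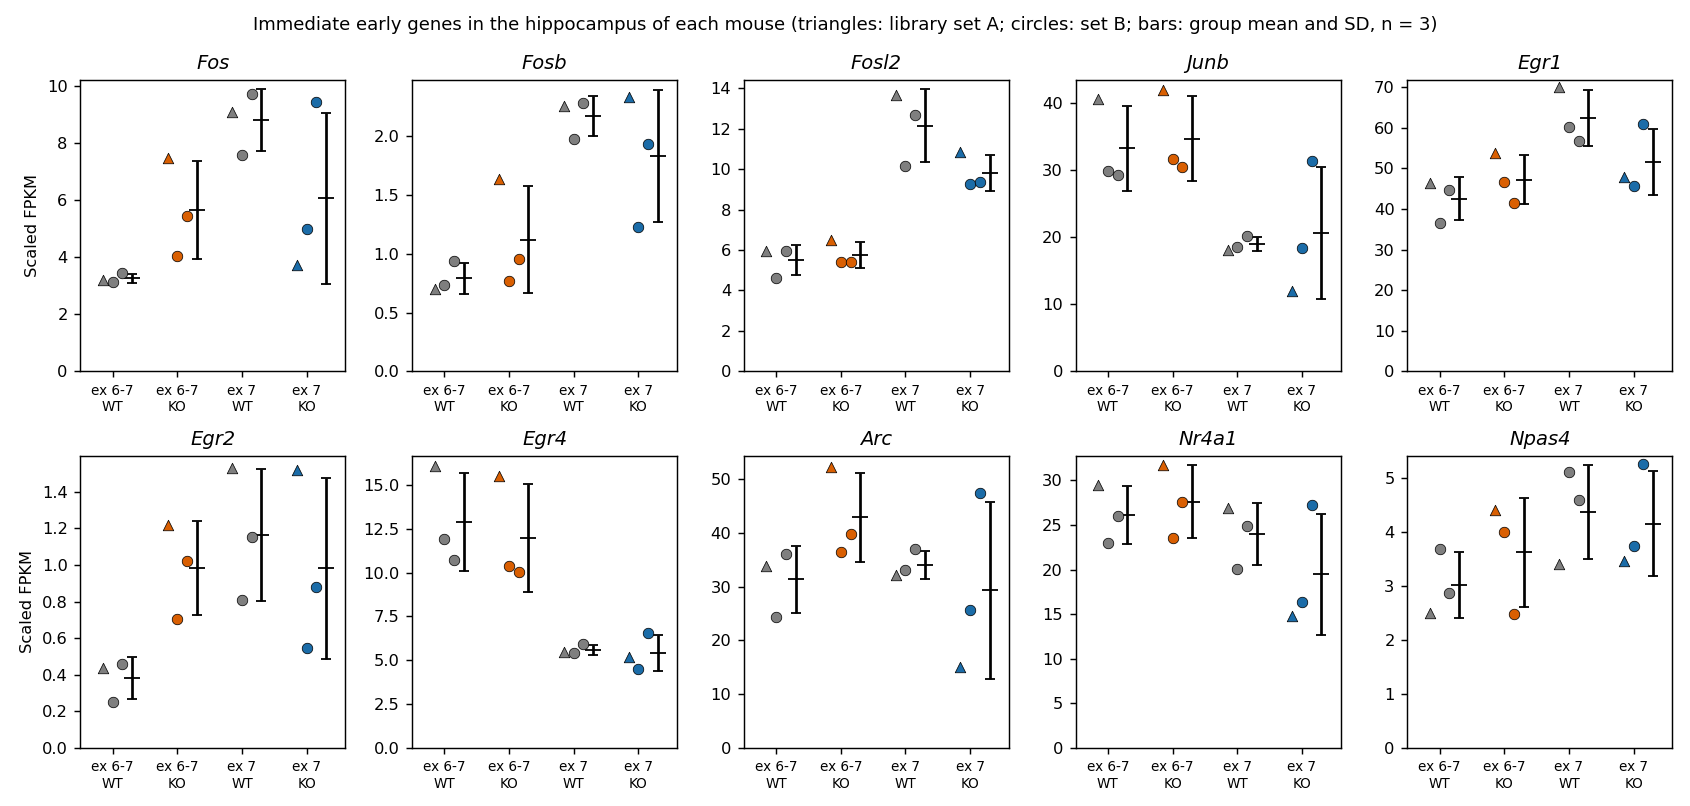
Scaled FPKM of the 10 genes in each mouse, by group, with triangles for set A, circles for set B and bars for the group mean and SD (n = 3). Fos, Arc and Egr2 are higher in all 3 knockout than in all 3 wild-type mice of the exon 6-7 line. The exon 7 knockout mice have the largest SD of the groups for every gene but Fosl2, Egr4 and Npas4.

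In the knockout comparisons no gene of the 10 passed the test in either line. For Fos, Arc and Egr2 the 3 knockout mice of the exon 6-7 line exceeded the 3 wild types, by 1.53-fold, 1.36-fold and 1.43-fold on the log2(scaled FPKM + 1) scale. The same 3 genes were on average lower in the exon 7 knockout, at 0.684, 0.781 and 0.906 of wild type, and the groups overlapped for all 10. In the mouse order WT778, WT809, WT865, KO776, KO777, KO864, then WT628, WT993, WT999, KO969, KO990, KO994, each gene's values follow by role.

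Among the AP-1 subunits Fos differed most. In the exon 6-7 line Fos was at 3.18, 3.14 and 3.45 scaled FPKM in wild-type mice and at 7.47, 4.05 and 5.43 in knockout mice, means of 3.26 ± 0.169 and 5.65 ± 1.72 (SD, n = 3 each). The log2 difference was 0.61 (SE 0.25, limma p = 0.032, adjusted p = 0.9998, two-sided exact permutation p = 0.1, the smallest that 3 against 3 mice allow). The knockout mice were above the wild types in 3 of 3 cases. It was 1.02 in set A and 0.41 in set B, and over the mice left out in turn it ran from 0.42 to 0.79. In the exon 7 line Fos was at 9.07, 7.59 and 9.71 in wild-type mice and at 3.74, 4.99 and 9.45 in knockout mice, so that KO969 and KO990 were below every wild type and KO994 was within their range. The difference there was −0.55 (SE 0.25, limma p = 0.051, adjusted p = 0.9999, exact permutation p = 0.3), and in sets A and B it was −1.09 and −0.28. The 2 knockout effects on Fos differed by −1.16 (SE 0.36, limma p = 0.0070, adjusted p = 0.9998), and the exact permutation test over 400 relabellings of genotype within lines gave p = 0.025. In limma that difference does not pass adjustment over all genes. The relabelling takes genotype to have no effect in either line, so its p does not test whether the 2 effects are equal. It was run for all 10 genes, and Fos had the smallest exact permutation p, the others having 0.07 to 0.87.

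Fosb, from which neurons make both a full-length and a short, stable protein, was at 0.698, 0.731 and 0.941 in the exon 6-7 wild types and at 1.63, 0.768 and 0.953 in the knockouts. It was at 2.26, 1.97 and 2.28, and at 2.34, 1.22 and 1.93, in the exon 7 line. The groups overlapped in both lines, and the 0.22 in the exon 6-7 line rested on KO776: it was 0.63 in set A and 0.019 in set B. The −0.18 in the exon 7 line was 0.035 in set A and −0.29 in set B. Fosl2, a slower and longer-lasting Fos relative, was at 5.95, 4.64 and 5.94 against 6.49, 5.38 and 5.40 in the exon 6-7 line, with differences of 0.11 and 0.031 within sets A and B. The exon 7 line had 13.6, 10.2 and 12.7 against 10.8, 9.24 and 9.34, with KO990 and KO994 below every wild type. That difference of −0.28 (SE 0.13, limma p = 0.056, adjusted p = 0.9999, exact permutation p = 0.2) was −0.31 and −0.26 within sets A and B. Junb, a partner of the Fos proteins, was at 40.6, 29.9 and 29.2 against 41.9, 31.7 and 30.5 in the exon 6-7 line. It was at 18.1, 18.6 and 20.1 against 12.0, 18.4 and 31.4 in the exon 7 line, where the knockout group held both the lowest and the highest mouse of the 6. Its differences were 0.061 and 0.016 (SE 0.26 each), with 95% limits of −0.51 to 0.63 and −0.55 to 0.58. The first was 0.045 in set A and 0.069 in set B, but the second was −0.55 in set A and 0.30 in set B, so the sets differed in sign. Of the 2301 exonic bases of Junb 173 are shared with Prdx2 on the opposite strand. Prdx2 was at 208 to 266 scaled FPKM in the exon 6-7 line and at 95.9 to 115 in the exon 7 line. The strand setting of the counting is not given, so the Junb level is uncertain.

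Egr1, which is strongly linked to lasting synaptic potentiation, was at 46.4, 36.6 and 44.7 against 53.7, 46.6 and 41.5 in the exon 6-7 line. Its exon 7 values were 70.2, 60.3 and 56.8 against 48.0, 45.8 and 60.8. The differences of 0.15 and −0.28 (SE 0.14 each) did not pass, and the groups overlapped. In sets A and B the first was 0.21 and 0.12 and the second −0.54 and −0.15. Egr2, known also for myelination in peripheral nerve, was at 0.434, 0.249 and 0.459 against 1.22, 0.707 and 1.02 in the exon 6-7 line. All 3 knockout mice were above the wild types there. The difference was 0.52 (SE 0.18, limma p = 0.018, adjusted p = 1, exact permutation p = 0.1), in sets A and B 0.63 and 0.46. Egr2 in the exon 7 line was at 1.53, 0.810 and 1.15 against 1.52, 0.548 and 0.880, where in each group the set A mouse was the highest and the difference was −0.0057 in set A and −0.21 in set B. Egr4 was at 16.1, 11.9 and 10.7 against 15.5, 10.4 and 10.04, and at 5.44, 5.41 and 5.93 against 5.19, 4.48 and 6.54. In the exon 6-7 line Egr4 was parted by set and not by genotype: both set A mice were above all 4 set B mice, and the set term was 0.52 (SE 0.12, limma adjusted p = 0.030). Its knockout differences were −0.11 and −0.053 (SE 0.18 each), in sets A and B −0.045 and −0.13 in the exon 6-7 line and −0.057 and −0.051 in the exon 7 line.

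Arc was at 33.8, 24.3 and 36.0 in the exon 6-7 wild types and at 52.3, 36.5 and 39.8 in the knockouts, means of 31.4 ± 6.22 and 42.9 ± 8.37 (SD, n = 3 each). The difference of 0.44 (SE 0.31, limma p = 0.18, adjusted p = 0.9998, exact permutation p = 0.1) was 0.62 in set A and 0.35 in set B, and 3 of 3 knockout mice were above the wild types. Arc in the exon 7 line was at 32.2, 33.1 and 37.1 in the wild types and at 14.95, 25.6 and 47.4 in the knockouts, which therefore lay on both sides of them. The SD of Arc was 2.61 in those wild types and 16.5 in those knockouts. Its difference of −0.36 (SE 0.31) rested on KO969: it was −1.06 in set A, −0.0079 in set B and 0.032 without that mouse. Nr4a1 in the exon 6-7 line was at 29.5, 23.0 and 26.0 against 31.8, 23.6 and 27.6, and at 26.9, 20.1 and 24.9 against 14.8, 16.3 and 27.3 in the exon 7 line. Its differences were 0.073 and −0.32 (SE 0.20 each), the first being 0.10 in set A and 0.058 in set B and the second −0.82 and −0.077. Npas4 was at 2.498, 3.69 and 2.86 against 4.40, 3.996 and 2.49, and at 3.41, 5.12 and 4.60 against 3.46, 3.74 and 5.27. Its differences were 0.19 and −0.064 (SE 0.20 each), and the groups overlapped. The 0.19 came from set A, at 0.63, against −0.030 in set B, and in the exon 7 line the sets had 0.013 and −0.103.

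**Figure D2:**
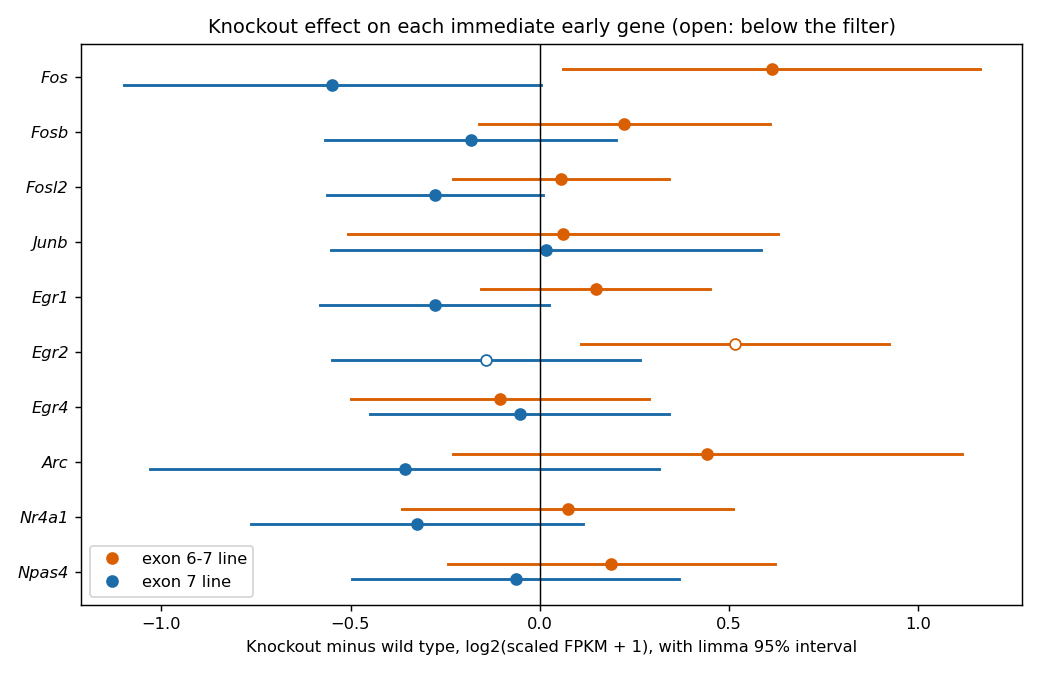
Knockout minus wild type for each gene in the exon 6-7 line (orange) and the exon 7 line (blue), as log2(scaled FPKM + 1) with limma 95% intervals; the open points are Egr2, which is below the filter. Of the 9 tested genes, 8 have the orange point above 0 and 1 has the blue point there, and of the 10 the interval lies wholly off 0 for Fos and Egr2 in the exon 6-7 line.

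Across the list, limma called 0 of 9 tested genes in the exon 6-7 line, where 0.0141% of all genes passed, and 1 of 9 (Fos) had an unadjusted p under 0.05, against 583 genes or 4.10%. It called 0 of 9 in the exon 7 line, where 0% of all genes passed, and 0 of 9 had an unadjusted p under 0.05, against 492 genes or 3.46%. For the difference of the 2 effects it called 0 of 9 (0.00704% of all genes), with Fos alone under an unadjusted 0.05, against 3.88% of all genes. For their mean it called 0 of 9 (0.0141%), with 0 of 9 under an unadjusted 0.05, against 3.63%. Without overlap in the exon 6-7 line were Fos and Arc of the 9, both with the knockout above, against 5.02% of all genes. No gene of the 10 was without overlap in the exon 7 line (7.04% of all genes). The log2 difference was above 0 for 8 of 9 in the exon 6-7 line (49.4% of all genes), with a median of 0.15 against −0.0019 over all genes. It was below 0 for 8 of 9 in the exon 7 line (53.3% of all genes), with a median of −0.28 against −0.0083. Many of the genes go up and down together within groups, as described below, so these counts do not stand for 9 separate measurements.

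Markers of other cell types differed between the same groups, and their part in these values was not tested. In the exon 6-7 line the 5 oligodendrocyte markers summed to 4911 to 6162 in wild-type and 4323 to 4460 in knockout mice. Of them 4 of 5 (Mbp, Mog, Mobp and Cnp) were lower at an unadjusted limma p under 0.05. Of all 14212 genes, 294 were lower and 289 higher at that p in that line. The 5 choroid plexus markers summed to 42.1 to 8609 and 6724 to 8407, the lowest being WT865, and without that mouse the Fos difference was 0.64. Ttr had the highest mean level of these 5, at 3781, and 3 of the 5 were higher at an unadjusted p under 0.05. The 5 markers of meninges and fibroblasts summed to 42.5 to 50.7 and 59.4 to 64.6, and 3 of 5 were higher at an unadjusted p under 0.05. In the exon 7 line the summed levels of 4 lists did not overlap between the groups. The 10 hippocampal excitatory markers summed to 795 to 814 in wild-type and 839 to 867 in knockout mice, with 6 of 10 above 0 in log2 difference. The 5 astrocyte markers summed to 443 to 487 and 511 to 529.5, with 4 of 5 above 0. The 5 oligodendrocyte markers summed to 4779 to 5002 and 4375 to 4680, with 5 of 5 below 0. Those of meninges and fibroblasts summed to 54.0 to 56.8 and 57.3 to 70.2, with 4 of 5 above 0. Of these 4 lists 1 gene, the dentate granule cell marker C1ql2, had an unadjusted p under 0.05 in that line, with a log2 difference of 0.49 (limma adjusted p = 0.9999). The 5 blood genes overlapped there, at 101 to 290 in wild-type and 255 to 390 in knockout mice, with 5 of 5 above 0 and 2, the globin genes Hba-a2 and Hbb-bt, at an unadjusted p under 0.05. Of all genes, 3.46% had such a p in that line. No marker of these 6 lists was at 0 in any mouse, and none passed in limma in either line.

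The wild types of the 2 lines differed in 6 of the 9 tested genes, against 67.1% of all genes, so the share is that of the background. Fos was higher in the exon 7 wild types by 1.20 (SE 0.25, limma adjusted p = 0.0012), Fosl2 by 1.01 (SE 0.13, adjusted p = 2.59e-05), Fosb by 0.83 (SE 0.18, adjusted p = 0.0013) and Egr1 by 0.54 (SE 0.14, adjusted p = 0.0042), all in limma. For these 4 the groups did not overlap, as for 35.7% of all genes in that direction. Egr4 was lower there, with a log2 difference of −1.06 (SE 0.18, limma adjusted p = 0.00025), as was Junb, with −0.77 (SE 0.26, limma adjusted p = 0.021). Relatives of 1 family lay on opposite sides here, Fos and Junb within AP-1 and Egr1 and Egr4 within the EGR factors. Of all genes, those that passed were also split about evenly between higher and lower, so no pattern by family is drawn from this. Egr2, below the filter, was higher by 0.64 (SE 0.18, limma adjusted p = 0.016). Arc at 0.13, Nr4a1 at −0.13 and Npas4 at 0.42 (limma adjusted p = 0.080) did not pass. The Junb call was lost with a term for the library set (−0.45, limma adjusted p = 0.083), after rescaling to TPM (−0.64, 0.063) and without WT778 (−0.62, 0.081), and Npas4 passed under 4 of the alternatives. Prdx2, which shares exonic bases with Junb, was at 213 to 248 scaled FPKM in the exon 6-7 wild types and 95.9 to 115 in the exon 7 wild types. It was thus lower on the same side as Junb, and its part in the Junb difference was not tested. The comparison of wild types uses the same wild-type mice as the knockout comparisons, and line and any batch of a line cannot be told apart. The mitochondrial share of the values was 6.22 to 7.39% in one line and 10.3 to 14.3% in the other.

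**Figure D3:**
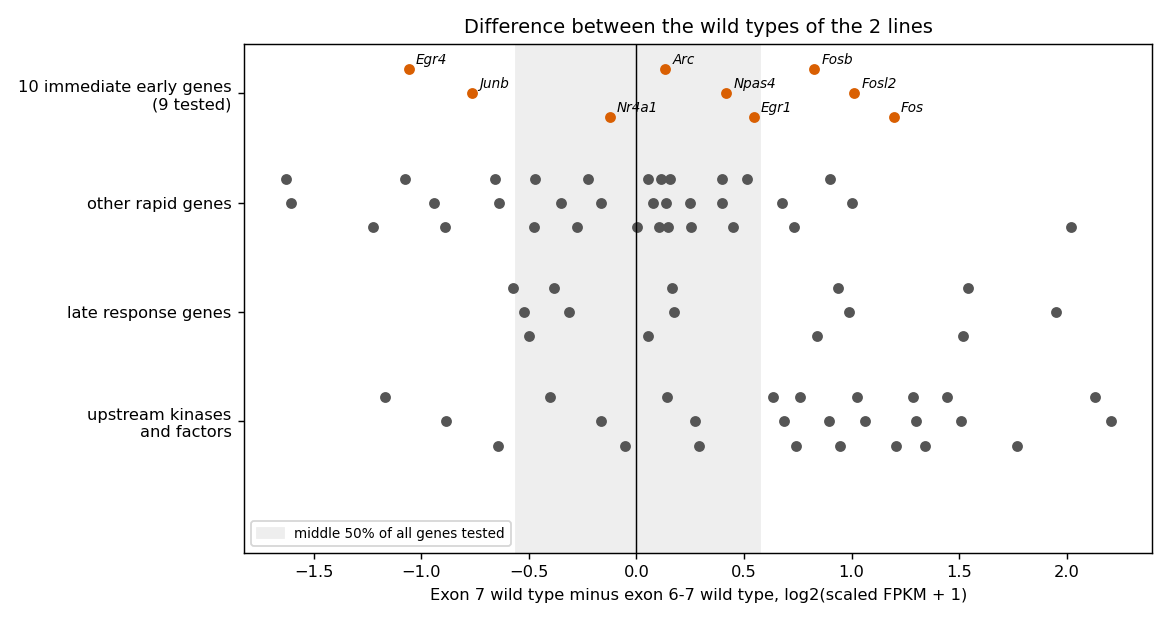
Exon 7 wild type minus exon 6-7 wild type, in log2(scaled FPKM + 1), for each tested gene of 4 lists; the grey band holds the middle 50% of all genes tested, from −0.56 to 0.58. Fos, Fosl2 and Fosb lie to the right of the band and Egr4 and Junb to the left, while Egr1, Arc, Nr4a1 and Npas4 lie inside it.

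Between mice of 1 group many of the genes varied together, though not all pairs did, and 3 knockout mice stood out. KO776 was the highest of its group for all 10 genes, with deviations from the group mean of 0.15 to 0.38 in log2. It is also the only set A library of its group. The set term of that line, set A minus set B, was above 0 for all 10 genes, from 0.044 for Npas4 to 0.52 for Egr4. Egr4 alone passed, against 6.82% of all genes. Set A in that line is KO776 and WT778, so this term is not separate from the KO776 values. WT778 was the highest of its group for 5 genes and the lowest for 2. KO994 was the highest of its group for 7 of 10, with 0.82 for Arc, 0.68 for Junb, 0.65 for Fos and 0.51 for Nr4a1. KO969 was the lowest for 5, with −0.78 for Arc, −0.63 for Junb, −0.49 for Fos, −0.32 for Nr4a1 and −0.19 for Npas4, but the highest for Fosb (0.26), Fosl2 (0.14) and Egr2 (0.38). KO990 was below the group mean for all 10. Among the wild types the deviations were between −0.34 and 0.32. Those of the exon 6-7 knockouts were close to that, between −0.38 and 0.38, and the widest were those of KO969 and KO994. WT809 and WT993 were each the lowest of their group for 6 genes and the highest for 1, Npas4.

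**Figure D4:**
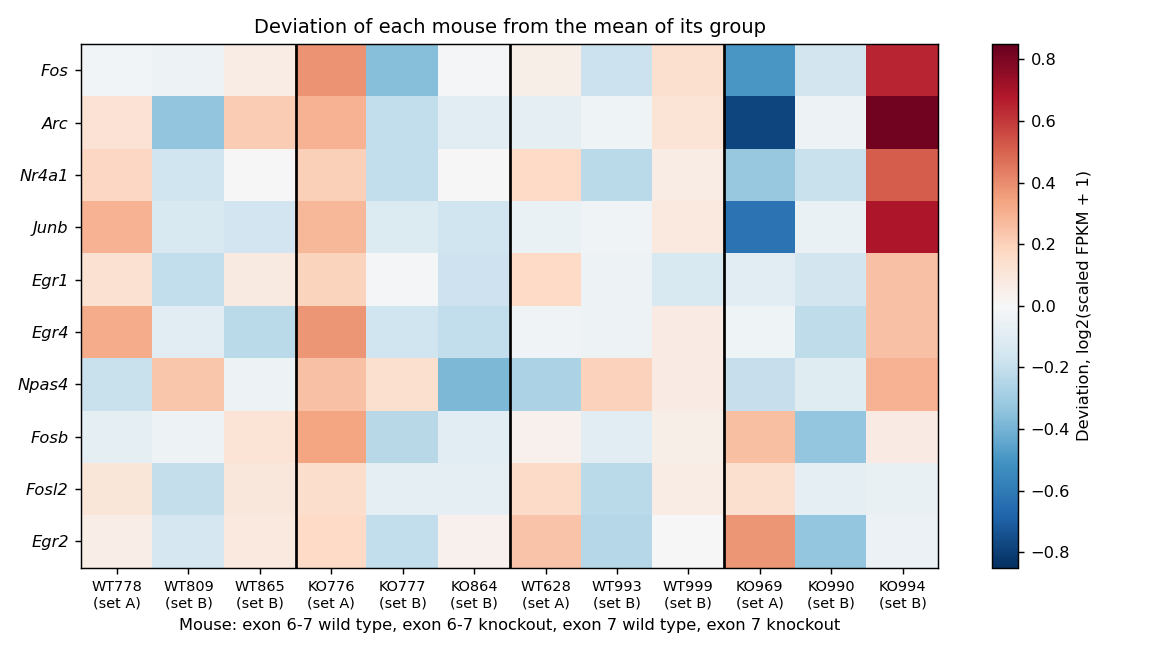
Deviation of each mouse (columns, in order of group) from the mean of its group for each gene (rows), in log2(scaled FPKM + 1), red above and blue below. KO776 is red in every row, KO994 is darkest for Arc, Junb and Fos, and KO969 is blue in the upper rows and red for Fosb, Fosl2 and Egr2.

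Over the 12 deviations the genes formed a block of 4 and a block of 3. Pearson's r was 0.85 to 0.91 for every pair among Fos, Arc, Nr4a1 and Junb. Among Fosb, Fosl2 and Egr2 it was 0.62 to 0.82, and between the blocks it ran from −0.23 for Junb with Egr2 to 0.35 for Fos with Fosb. Egr1 and Egr4 correlated with Nr4a1 at 0.75 and 0.66 and with Junb at 0.63 and 0.69. Npas4 had r of at most 0.48, with Junb, and −0.40 and −0.41 with Fosl2 and Egr2. The median over the 45 pairs was 0.40, where that of pairs of all genes was 0, and 42.2% of the pairs were above 0.5, against 16.4% of pairs of all genes. It was 0.65 in the exon 6-7 line alone and 0.56 in the exon 7 line alone. Without KO969 it was 0.64, without KO776 0.26, and in set B alone 0.65. These are descriptions over 12 points that share their library, so that any property of a library enters every gene in it.

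The 2 blocks were apart in the exon 7 line. There r with Fos was −0.012 for Fosb, −0.13 for Fosl2 and −0.21 for Egr2, and in the exon 6-7 line it was 0.95, 0.61 and 0.87. Over all 12 mice r with Fos was 0.35, 0.14 and 0.060, and without KO994 and KO969, the mice farthest from the median of Fos, it was 0.90, 0.65 and 0.75. The set term of the exon 7 line, set A minus set B, was 0.46 for Egr2 (SE 0.13, limma adjusted p = 0.050), 0.23 for Fosl2 (SE 0.11, 0.13), −0.52 for Junb (SE 0.20, 0.081) and −0.64 for Arc (SE 0.27, 0.094). It was 0.22 for Fosb, 0.062 for Egr1, −0.051 for Egr4, −0.11 for Nr4a1, −0.33 for Fos and −0.35 for Npas4. None of these terms passed, against 31.5% of all genes tested, and that of Egr2 is from the fit with no filter. In this line set A is KO969 and WT628. Whether the difference between lines in these correlations exceeds chance was not tested.

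Fos was then set as a covariate in a fit of all genes with 4 group means, and the slope is the log2 change of a gene per log2 unit of Fos between mice of 1 group. No gene passed in limma (0 of 14211, or 0% of all genes), and 322 (2.27%) had an unadjusted p under 0.05. Ranked by p, Arc was at rank 1, with a slope of 1.13 (SE 0.19, limma adjusted p = 0.79), Nr4a1 at rank 3, with 0.72 (SE 0.13, limma adjusted p = 0.84), and Junb at rank 4, with 0.89 (SE 0.19, limma adjusted p = 0.9998). At rank 2 was Dusp1, a phosphatase that switches off MAP kinases and itself an immediate early gene, with 0.77 (SE 0.13, limma adjusted p = 0.79). The slopes of Egr4, Egr1, Npas4, Fosb and Fosl2 were 0.41, 0.31, 0.30, 0.22 and 0.062, all 8 tested slopes being above 0 (49.0% of all genes). With mice left out in turn that of Fosb ran from 0.040 without KO776 to 0.62 without KO969 (rank 24, limma adjusted p = 0.9998), that of Npas4 from 0.049 without KO994 to 0.46 without KO777, that of Egr4 from 0.25 without KO776 to 0.59 without KO969, and that of Egr1 from 0.19 without KO994 to 0.38 without KO969. Without KO994 the ranks of Arc, Dusp1, Nr4a1 and Junb were 28, 90, 49 and 293, with slopes of 0.91, 0.52, 0.60 and 0.63. With a term for the library set the ranks of these 4 were 10, 8, 6 and 34, with slopes of 0.97, 0.78, 0.75 and 0.68. In set B alone the ranks were 45, 26, 3 and 81, with slopes of 0.96, 0.85, 0.86 and 0.69. In the exon 6-7 line fitted alone they ranked 429, 821, 482 and 2661, with slopes of 0.76, 0.49, 0.55 and 0.49, while Fosb was at rank 75 there, with 0.80. In the exon 7 line alone the same 4 genes were at ranks 2, 8, 12 and 6, and Fosb at 13966, so the 4 were near the top in that line and not in the other.

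Correlations with Fos were computed for the other 9 genes over 12 mice, with permutation of mice within groups (1296 arrangements, exact). The p-values were not adjusted over the 9 genes. The permutation exchanges set A and set B libraries within a group, so library set can enter its p-values. For Arc, Pearson's r was 0.90 (exact permutation p = 0.0031) and Spearman's rho 0.78 (p = 0.019), and r was 0.69 without KO994 and KO969. Nr4a1 had r of 0.91 (exact permutation p = 0.0054), rho of 0.89 (p = 0.0077) and r of 0.78 without those mice. Junb had r of 0.85 (exact permutation p = 0.047), rho of 0.52 (p = 0.18) and r of 0.52 without them, so its relation rests in large part on them. The remaining 6 had exact permutation p-values of 0.14 to 0.93. In the limma fit given above none of the 8 tested passed, and Egr2, below the filter, was not in it.

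**Figure D5:**
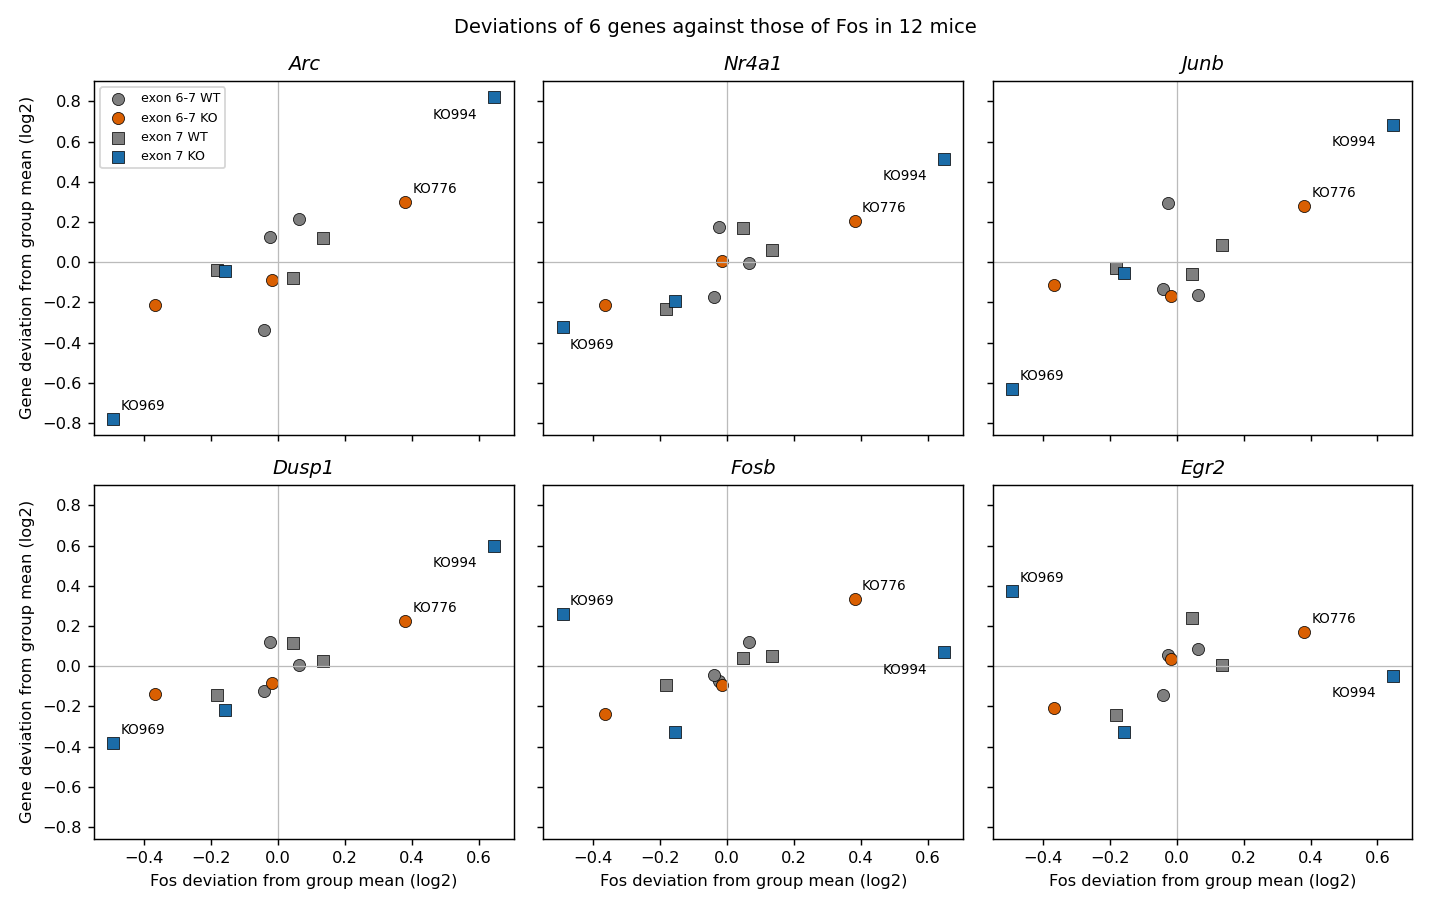
Deviation from the group mean of Arc, Nr4a1, Junb, Dusp1, Fosb and Egr2 (vertical) against that of Fos (horizontal) in 12 mice, in log2(scaled FPKM + 1). In the first 4 panels KO969 lies at the lower left and KO994 at the upper right, whereas for Fosb and Egr2 KO969 lies at the upper left.

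Other rapid immediate early genes leaned the same way along the Fos axis. Of 36 such genes 33 passed the filter, and 29 of the 33 had a slope above 0 (49.0% of all genes), with a median of 0.21 against −0.0037 over all genes. None passed, and 5 had an unadjusted p under 0.05, all above 0. Those with the smallest p after Dusp1 were Ier2, with a slope of 0.58, Nr4a3, a relative of Nr4a1, with 0.34, and Gadd45b, a stress-response gene, with 0.52. Dusp1 was at 10.8 scaled FPKM in KO776 and 12.6 in KO994, the highest of their groups, and at 5.86 in KO969, the lowest of its group. Of the 16 genes listed here as late response genes 14 were tested and 7 had a slope above 0, with a median of −0.0095. Vgf, a secreted neuropeptide precursor, had the smallest p (slope 0.35, limma adjusted p = 0.9998). Of 26 upstream kinases and transcription factors 13 were above 0, with a median of 0.022, and Srf had the smallest p (slope 0.26, limma adjusted p = 0.9998). The 5 blood genes had slopes below 0 in all cases, from −0.49 to −0.13, and summed to 101 to 539 scaled FPKM over the mice. The median slope of the 10 hippocampal excitatory markers was 0.048. The part of blood in the Fos relation was not tested.

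In the knockout comparisons these lists had no gene that passed. Of the 33 other rapid genes 20 were above 0 in the exon 6-7 line (49.4% of all genes), with a median of 0.029, and 13 in the exon 7 line (46.7%), with a median of −0.052. Egr3, the remaining EGR factor, was at 0.35 in the exon 6-7 line (SE 0.14, limma adjusted p = 0.9998). Jund was at 0.22 in the exon 7 line (SE 0.0999, limma adjusted p = 0.9999). Late response genes were above 0 in 8 and 4 of 14. Of these, Nptx2 had the smallest p in the exon 6-7 line, where it was lower, at −0.25 (SE 0.12). Pcsk1 had the smallest p in the exon 7 line, at −0.32 (SE 0.13). Homer1, a synaptic scaffold gene with a short activity-induced form, came next by p in both lines, at 0.26 and −0.29 (SE 0.16 each). Upstream genes were above 0 in 17 and 12 of 26, with medians of 0.048 and −0.023. Among them Ep300 had the smallest p in the exon 6-7 line, at 0.24 (SE 0.10), and Camk2b in the exon 7 line, at 0.14 (SE 0.092). Between the wild types of the lines, 16 of 33 other rapid genes passed (7 higher and 9 lower in the exon 7 line), as did 9 of 14 late response genes (6 and 3) and 22 of 26 upstream genes (18 and 4), against 67.1% of all genes. Egr3 was 2.02 higher (SE 0.14) and Nr4a2 and Nr4a3 1.001 and 0.90 higher, while Jund was lower, at −1.61, and so was Gadd45g, a relative of Gadd45b, at −1.63 (all limma adjusted p under the threshold of 0.05).

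The genes most like the 10 were sought by Pearson's r over 12 mice between a gene's deviations and the mean of the deviations of the 10, each scaled to the same SD. The first 8 were Klf8 (0.93), Cdr2l (0.92), Fam110a (0.92), Lrrc47 (0.92), Vps18 (0.91), Cpne1 (0.90), Cdk20 (0.90) and Dusp1 (0.89). Of these Dusp1 alone is in the list of rapid immediate early genes. Klf8 was near the filter, at 0.237 to 2.28 scaled FPKM, and the other 7 were above 2 in every mouse.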

How the data were processed

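Poly(A) RNA of 12 hippocampal samples was made into TruSeq libraries, per the labels' protocols. Cufflinks, GSNAP 2013-11-27, CASAVA and the mm10 build are listed, without roles, per the submitters' processing notes. The authors deposited FPKM per gene and mouse with Ensembl identifiers, per the file headers. How fragments were counted, by strand or at repeated sites, was not given in the sources used here. Whole reads could not be recovered: at most 33.8% of the ratios of low values lay within 0.1 log2 units of their mode.

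Unlisted genes were set to 0. Scaling between libraries used the median of ratios over 12511 genes (factors 0.919 to 1.07), and 110 genes of small RNA types were left out. Genes were tested with limma-trend (limma 3.58.1, R 4.3.3) on log2(scaled FPKM + 1), with 4 group means, 8 residual degrees of freedom, two-sided tests and a threshold of 0.05. It was tested on simulated data. Exact permutation tests were run on log2 values. The 5 motifs were searched on both strands of the 250 bases before each start. Annotation was GENCODE M21. Python 3.11.15, pandas 2.3.3 and matplotlib 3.10.9 were used for tables and plots.

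The 10 genes, the lists and the rule for named genes were chosen with earlier results of these data known. Named were all 10 genes in every mouse, of each activity list every gene past the threshold or otherwise the 4 with the smallest p (the text gives a selection of these), the 8 genes most like the 10, and any gene passing in the Fos relation. The lists were other rapid immediate early genes, late response genes, upstream kinases and transcription factors, and markers of 11 cell types or tissues, of which the text gives those whose summed level did not overlap between knockout and wild-type mice of a line, together with choroid plexus and blood. The remaining marker lists had median slopes on Fos of 0.026 (pan-neuronal), 0.068 (inhibitory neurons), −0.052 (astrocytes), 0.048 (oligodendrocytes), −0.058 (microglia), 0.012 (endothelium), 0.035 (choroid plexus), −0.15 (meninges and fibroblasts) and 0.027 (striatum and thalamus). Library sets were defined by 1 gene with no value in 4 libraries. The alternatives tried were quantile normalization, TPM, unscaled FPKM, pseudocounts of 0.1 and 5, filters of 0 and 5 FPKM, array quality weights, each line alone, a set term, other anchor genes and each mouse left out. Set B alone, small RNAs kept, and further subsets for the deviations were chosen after seeing the data.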

Additional observations from a re-analysis of the deposited data

How the results depend on the processing

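All values below are log2 differences or counts of genes past the threshold in limma. No paired analysis was possible because each mouse number occurs once and none is shared between groups. For none of the 9 tested genes did a knockout comparison or the Fos relation pass under any alternative run. Gene counts over the whole table were small and moved by over 1.5 times. The exon 7 knockout count, 0 as reported, was 1 with a pseudocount of 0.1 and 1 with no filter. The exon 6-7 count, 2 as reported, was 5 with no filter, and that of the mean of both effects, 2 as reported, was 4. The count for the difference of effects, 1 as reported, was 2 with a pseudocount of 0.1, with array quality weights and with small RNAs kept, and 3 with a set term. With mice left out in turn these 4 counts ran from 0 to 2, 1 to 6, 1 to 5 and 1 to 3, and the count between wild types from 8706 to 9780. With Arc in place of Fos as the anchor 1 gene passed, Ran (slope 0.94, adjusted p = 0.031), and with Junb, Egr1 or Npas4 none.

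Some small differences turned sign. Between wild types Arc was −0.0159 with FPKM as deposited, and Nr4a1 was 0.0171 as TPM and 0.00816 with the set term. Slopes in the exon 7 line alone were −0.00592 for Fosb and −0.0487 for Fosl2, and Fosl2 had slopes of −0.238 and −0.0143 on Npas4 and Junb. With mice left out in turn, the exon 6-7 knockout difference ran from −0.0435 to 0.108 for Fosl2 (below 0 without WT809 or KO776), −0.0789 to 0.210 for Junb (WT809, WT865 or KO776), −0.292 to 0.0527 for Egr4 (above 0 without WT778) and −0.0294 to 0.179 for Nr4a1 (below 0 without WT809 or KO776). The exon 7 difference ran from −0.326 to 0.331 for Junb (below 0 without WT628 or KO994), −0.178 to 0.0531 for Egr4 (above 0 without KO990), −0.768 to 0.0325 for Arc (KO969) and −0.213 to 0.0354 for Npas4 (WT993 or KO969). Between wild types Arc ran from −0.0332 (without WT809) to 0.241, and the slope of Fosl2 on Fos from −0.0289 (without KO776) to 0.311. Npas4 between wild types passed as TPM (0.60), with weights (0.48), with the set term (0.55) and without WT628 (0.55). The cause was not tested. With 3 mice a group and unknown depth, small differences were not detectable. The limma intervals shown are not adjusted over genes, so a difference whose interval lies off 0 can still fail the test. Fos in the exon 6-7 line, at 0.61 with 95% limits of 0.062 to 1.16, had limma adjusted p = 0.9998.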
